A study of Homo sapiens with 18 samples.

Results

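The 10 genes described here encode parts of the contractile actin and myosin apparatus: ACTA2, ACTG2, TAGLN, CNN1, CALD1, TPM1, TPM2, MYL9, MYH9 and MYH10. They were taken from a list of contractile genes known as targets of serum response factor (SRF), because the signal of ACTA2 was higher after knockdown of PSF in LNCaP cells. The values of that contrast chose the genes and are therefore given as a description, with no test. Each of the 10 genes was read by 1 transcript cluster, a group of probes that covers a gene, of 21214 clusters with a gene symbol and 33297 on the array. A cluster entered the tests if its mean log2 signal over the 18 arrays was above 5.28, which left out the dimmest 25% and kept 15910. ACTG2, with a mean of 5.16, fell below that limit and is described by its values only, so 9 of the 10 genes were tested.

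Total RNA was measured on 18 gene-level arrays, 12 of LNCaP and 6 of VCaP, which are human prostate cancer lines that express the androgen receptor. The cells carried siPSF (siRNA against PSF, an RNA-binding protein encoded by SFPQ), siCTBP1-AS (siRNA against the antisense transcript CTBP1-AS of the corepressor gene CTBP1) or siControl, and were then given R1881, a synthetic androgen, or its ethanol vehicle. LNCaP set 1 held siCTBP1-AS and siControl at 10 nM R1881, set 2 the same siRNAs at 1 nM, and set 3 siPSF and siControl at 10 nM, while the VCaP set held siPSF, siCTBP1-AS and siControl at 1 nM. Each set had 1 array per siRNA and treatment, which makes 12 groups in all. Transfection preceded hormone by 48 h in every group, and charcoal-treated serum (2.5% for LNCaP, 5% for VCaP) was used for the 3 days before it. The siCTBP1-AS arrays of set 2 and VCaP carry a mark, #2, whose meaning the labels do not give. VCaP was measured in 1 set, so cell line and set cannot be told apart there.

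Smooth muscle actins polymerise into the thin filaments on which myosin II pulls, and tropomyosins, caldesmon, calponin and transgelin lie along those filaments and regulate access to them. SRF binds a short DNA motif, the CArG box, in front of many of these genes. With the actin-sensing cofactors of the MRTF family or with myocardin it drives cytoskeletal and smooth muscle genes, and with ternary complex factors it drives immediate early genes. In the prostate, the smooth muscle forms belong to the stroma, while nonmuscle myosin heavy chains and several tropomyosin forms are made by epithelial cells as well.

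The stretches in front of the genes are shown for ACTA2 and ACTG2, whose signals were both high after PSF knockdown. The ACTG2 window holds the motif, and the ACTA2 window shown, chosen for its match, holds only close relatives of it. They are the 250 bases before the transcription start in RefSeq (GRCh38.p14), 5′ to 3′ along the gene, at chr10:88952774-88953023 on the minus strand for ACTA2 and chr2:73892758-73893007 on the plus strand for ACTG2. Capitals mark a CArG box, or a CArG-like box in which 1 of the central letters is neither A nor T, both searched on both strands.
ACTA2: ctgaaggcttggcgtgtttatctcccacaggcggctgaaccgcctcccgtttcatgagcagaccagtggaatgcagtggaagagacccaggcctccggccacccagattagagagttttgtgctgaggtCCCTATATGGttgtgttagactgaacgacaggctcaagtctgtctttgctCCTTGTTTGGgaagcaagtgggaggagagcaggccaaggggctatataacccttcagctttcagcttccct
ACTG2: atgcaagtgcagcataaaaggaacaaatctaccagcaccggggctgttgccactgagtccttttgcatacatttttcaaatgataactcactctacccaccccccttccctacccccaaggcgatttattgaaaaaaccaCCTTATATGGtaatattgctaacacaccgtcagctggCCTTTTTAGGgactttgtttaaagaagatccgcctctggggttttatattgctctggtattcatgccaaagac
The ACTG2 window held 2 CArG boxes, CCTTATATGG at 110 to 101 bases before the start and CCTTTTTAGG at 73 to 64 bases. The ACTA2 window held 2 CArG-like boxes, CCCTATATGG at 121 to 112 bases and CCTTGTTTGG at 71 to 62 bases, and no box without the changed letter. Over all 35116 promoter windows of this length, 1.16% held a CArG box and 0.0313% held 2 or more, and 7.04% held a box of either kind, 0.587% 2 or more. Promoters of 8 of the 10 genes, 13 windows in all, were in the table, and in the others the search found 1 CArG-like box, CCTAAAGAGG in a CALD1 window. Another ACTA2 window, chr10:88991338-88991587 on the minus strand, held no box of either kind. A match describes the letters only, and binding of SRF was not measured.

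In the series as a whole, the target of siPSF could be checked. SFPQ differed from siControl by -0.90 with R1881 and -0.69 with vehicle in LNCaP set 3, and by -1.55 and -1.33 in VCaP. The level of CTBP1-AS was not analysed here, which leaves siCTBP1-AS without such a check. The median signal differed between sets, at 6.70, 5.74 and 6.80 in LNCaP sets 1, 2 and 3 and 6.25 in VCaP, so every difference below was taken within a set, and levels are not compared across sets. Of the prostate luminal markers, 6 of 6 measured passed the filter on dim clusters, against 5 of 12 smooth muscle genes outside the 10, 4 of 10 fibroblast genes and 0 of 6 endothelial genes. Of the basal epithelial genes 4 of 5 measured passed, and of the leukocyte genes 2 of 5. Separate cultures are not named in the labels, and the p-values below measure the spread between these arrays, which may be technical.

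**Figure D1:**
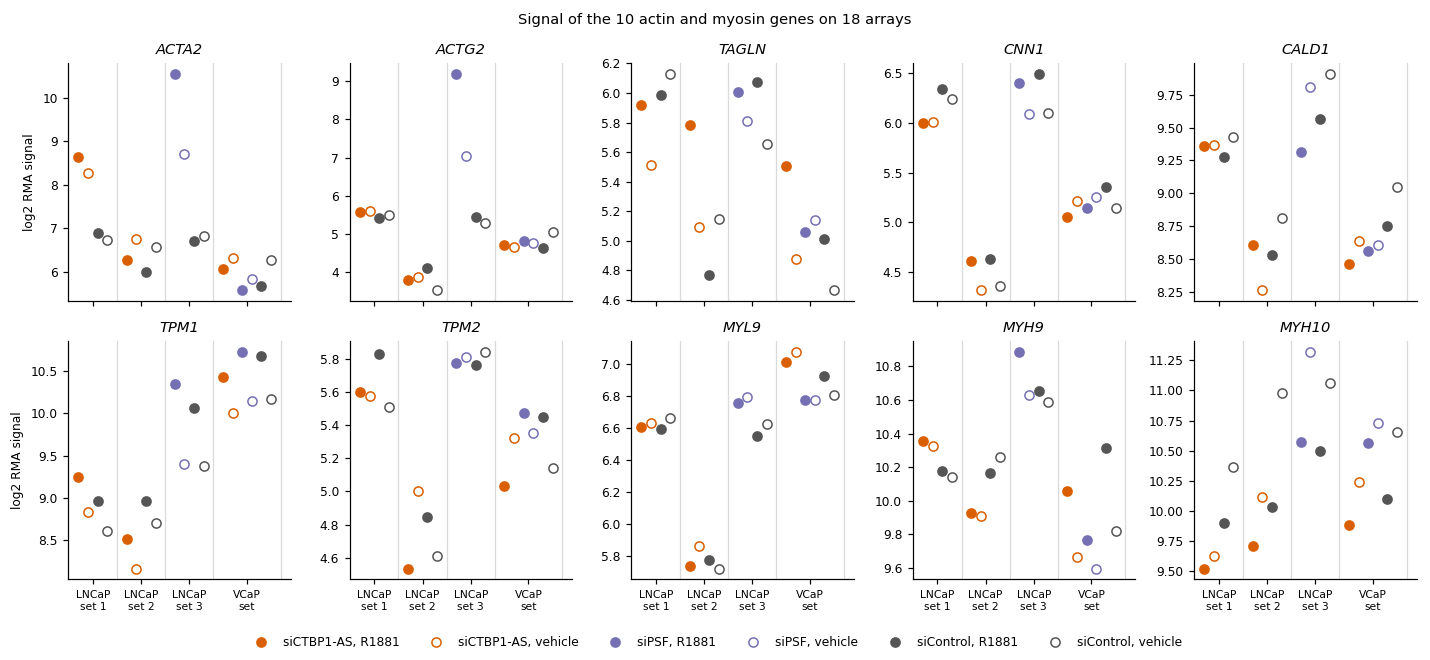
Log2 RMA signal (vertical axis, own scale per gene) of the 10 genes on each of the 18 arrays, grouped by array set, with 1 point per array coloured by siRNA, filled for R1881 and open for vehicle. Both siPSF points of LNCaP set 3 lie above every other array of that set for ACTA2 (10.56 and 8.71) and ACTG2 (9.20 and 7.04), and for ACTA2 the siCTBP1-AS points of set 1 lie above their controls (8.64 and 8.27).

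Knockdown of PSF in LNCaP, the contrast that chose the genes, gave high signals of both smooth muscle actins and left the mean differences of the other 8 between -0.17 and 0.19 log2 units. ACTA2, alpha smooth muscle actin, had signals of 10.56 with R1881 and 8.71 with vehicle under siPSF, against 6.70 and 6.83 under siControl. The differences were 3.86 (14.5-fold) with R1881 and 1.89 (3.70-fold) with vehicle. ACTG2, the gamma actin of enteric smooth muscle, had 9.20 and 7.04 under siPSF, against 5.43 and 5.29 under siControl. Its log2 differences were 3.77 with R1881 and 1.75 with vehicle, and no fold is given because the siControl signals lay next to the limit for dim clusters. By the mean of both treatments, ACTA2 ranked 2 among the 21214 annotated clusters. A difference above 1 in both treatments was found in 0.137% of those clusters and in 0.145% of the clusters tested, and because ACTA2 was chosen for this contrast nothing is read from its count.

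In both genes the difference was larger with R1881 than with vehicle. Seen the other way, R1881 minus vehicle was 1.84 for ACTA2 and 2.16 for ACTG2 under siPSF, against -0.13 and 0.13 under siControl of the same set. These are single pairs of arrays, with no replicate of siPSF in LNCaP.

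The other 8 genes stayed close to siControl in the same arrays. Myosin regulatory light chain MYL9 had the next highest mean difference, 0.19, followed by nonmuscle myosin heavy chain MYH10 at 0.17, tropomyosin TPM1 at 0.16 and heavy chain MYH9 at 0.14. The lowest was CALD1, the actin- and myosin-binding caldesmon, at -0.17. TAGLN (transgelin, 0.04), CNN1 (calponin, -0.05) and TPM2 (tropomyosin, -0.01) lay nearest to 0. MYL9 was the only one of the 8 with a difference above 0.15 in each treatment, 0.20 with R1881 and 0.17 with vehicle.

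Coding sequences of actin genes are close to each other, and probes can read a relative. In LNCaP set 3 the siPSF differences of the other actins were 0.39 and 0.18 for skeletal ACTA1, 0.11 and 0.08 for cardiac ACTC1, 0.11 and 0.10 for cytoplasmic ACTB and 0.13 and 0.10 for ACTG1, with R1881 and vehicle in turn. The ACTG2 signal did not follow ACTA2 everywhere. In LNCaP set 1 with siCTBP1-AS, ACTA2 was higher by 1.75 and 1.54, while ACTG2 differed by 0.15 and 0.10. How much the ACTG2 cluster reads ACTA2 RNA was not tested. RNA was taken from whole cultures, so a higher signal in every cell and a high signal in a few cells cannot be told apart.

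**Figure D2:**
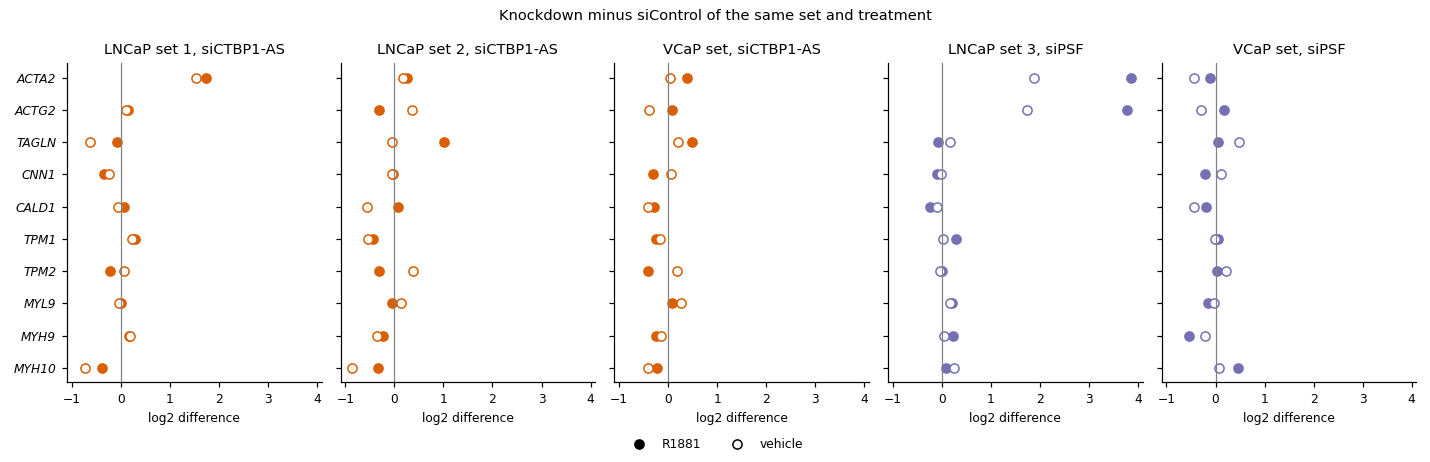
Knockdown minus siControl in log2 units (horizontal axis) for the 10 genes, 1 panel per array set and siRNA, filled points for R1881 and open points for vehicle. With siPSF in LNCaP set 3, ACTA2 (3.86 and 1.89) and ACTG2 (3.77 and 1.75) stand far from 0, and with siPSF in VCaP they lie between -0.45 and 0.18.

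In VCaP, siPSF gave no such difference. ACTA2 had 5.57 with R1881 and 5.82 with vehicle under siPSF, against 5.68 and 6.27 under siControl, and both siPSF arrays lay below their own control. ACTG2 had 4.80 and 4.76 under siPSF, against 4.62 and 5.05 under siControl, and was lower with vehicle only. The mean difference of ACTA2 was -0.28 (SE 0.45, adjusted p = 0.864, lower in 2 of 2 pairs, as were 34% of all clusters). Its SE takes in the spread of ACTA2 in all sets, the siPSF pairs of LNCaP among them. None of the 9 genes tested passed limma's test in this comparison, with 2.27% of all clusters called. An unadjusted p below 0.05 was found for 1 of the 9, against 14.7% of all clusters, so nothing is read from that count. That gene was MYH9, a nonmuscle myosin heavy chain, with 9.77 and 9.60 under siPSF against 10.31 and 9.82 under siControl (difference -0.38, SE 0.15, adjusted p = 0.262). The median over the 9 was -0.05, next to -0.02 over all clusters tested. SFPQ lay further below siControl in these arrays than in LNCaP, as given above. The siPSF difference between the lines was not tested, because the LNCaP values chose the genes.

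With siCTBP1-AS in LNCaP, MYH10, which encodes nonmuscle myosin heavy chain IIB, fell. Its signals in set 1 were 9.52 with R1881 and 9.63 with vehicle under siCTBP1-AS, against 9.90 and 10.36 under siControl, and in set 2 they were 9.71 and 10.12, against 10.04 and 10.98. All 4 siCTBP1-AS arrays lay below their own control. The mean change was -0.58 (0.671-fold, SE 0.11, adjusted p = 0.0150), with a lower signal in 4 of 4 pairs, as in 14.1% of all clusters. It was the only one of the 9 genes called. Of all clusters 3.42% were called lower and 6.14% in either direction, so nothing is read from 1 of 9. On the arrays of sets 1 and 2 alone the same difference had an adjusted p of 0.143, and without the siCTBP1-AS vehicle array of set 2 it was -0.48 (adjusted p = 0.0588).

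ACTA2 split by set under siCTBP1-AS. In LNCaP set 1 it had 8.64 with R1881 and 8.27 with vehicle, against 6.89 and 6.73 under siControl. In set 2 it had 6.26 and 6.75, against 6.00 and 6.58. The differences were 1.75 and 1.54 in set 1 and 0.26 and 0.17 in set 2, positive in 4 of 4 pairs, which held for 11.2% of all clusters. Over both sets the difference was 0.93 (SE 0.32, adjusted p = 0.114) and did not pass, whereas without set 2 it was 1.65 (adjusted p = 0.0271). The SE of 0.32 takes in the spread of ACTA2 in all sets, also that between the siPSF pairs of LNCaP, which chose the genes. The failure to pass is therefore not read as a result on siCTBP1-AS. The sets differed in R1881 dose and in the mark on the siRNA, and neither was tested. In the siCTBP1-AS arrays of set 1 the macrophage gene CD68 was higher by 1.70 and 1.57 and the lysozyme gene LYZ by 2.74 and 1.36, 2 of the 5 leukocyte markers measured, while 0 of 12 smooth muscle genes were above 1, and their part in the ACTA2 difference was not tested. PTPRC, which marks all leukocytes, differed by -0.04 and 0.10 there, and the mean log2 signal of the 5 markers was 6.55 and 6.15 under siCTBP1-AS, against 5.62 and 5.55 under siControl. LYZ and PTPRC lay below the filter on dim clusters, and in set 2 the mean siCTBP1-AS difference of LYZ was -0.30.

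TPM1 and SRF also went opposite ways in these sets. TPM1, which encodes alpha-tropomyosin, had 9.25 and 8.83 under siCTBP1-AS in set 1, against 8.96 and 8.60 under siControl. In set 2 it had 8.52 and 8.16, against 8.96 and 8.70. Its difference was -0.12 over both sets (adjusted p = 0.676), and without set 1 it was -0.49 (adjusted p = 0.0121). TAGLN, which encodes transgelin, had the widest range of the 9 genes over the 4 pairs, between -0.62 with vehicle in set 1 and 1.02 with R1881 in set 2 (mean 0.07, adjusted p = 0.886). The other 5 genes tested had mean differences between -0.16 for CNN1 (adjusted p = 0.316) and 0.02 for MYL9 (adjusted p = 0.904).

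In VCaP siCTBP1-AS called none of the 9 genes by limma's test, where it called 0.283% of all clusters. At an unadjusted p below 0.05 stood 1 of the 9, against 11% of all clusters, so nothing is read from that count. That gene was CALD1, with 8.46 with R1881 and 8.63 with vehicle under siCTBP1-AS, against 8.75 and 9.05 under siControl (difference -0.35, SE 0.15, adjusted p = 0.434). MYH10 had 9.89 and 10.24 under siCTBP1-AS, against 10.10 and 10.65 under siControl, lower in 2 of 2 pairs, as were 33.9% of all clusters (difference -0.31, SE 0.15, adjusted p = 0.480). ACTA2 differed by 0.22 (SE 0.45, adjusted p = 0.926), and that SE too takes in the siPSF pairs of LNCaP. Between the lines, 0 of 9 genes differed by limma's test, with 0.346% of all clusters called. At an unadjusted p below 0.05 stood 0 of the 9 and 12.7% of all clusters. For MYH10 the VCaP difference minus the LNCaP difference was 0.26 (SE 0.19, adjusted p = 0.601). Both VCaP knockdowns share the siControl arrays, so their differences are not independent of each other.

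With R1881 the smooth muscle actin ACTA2 did not pass the test in either line, and ACTG2 was not tested. In LNCaP TPM1 rose in each of 6 pairs of arrays. With R1881 its signals were 8.96, 8.96 and 10.07 under siControl in sets 1, 2 and 3, against 8.60, 8.70 and 9.37 with vehicle. Under siCTBP1-AS they were 9.25 and 8.52 in sets 1 and 2, against 8.83 and 8.16 with vehicle, and under siPSF 10.35, against 9.41. The change was 0.51 (1.42-fold, SE 0.08, adjusted p = 0.00181), and each R1881 array lay above its own vehicle array, as in 10.1% of all clusters.

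MYH10 fell with R1881 in each of the same pairs. Under siControl it had 9.90, 10.04 and 10.50 with R1881 in sets 1, 2 and 3, against 10.36, 10.98 and 11.06 with vehicle. Under siCTBP1-AS it had 9.52 and 9.71 with R1881, against 9.63 and 10.12, and under siPSF 10.57, against 11.32. Each R1881 array lay below its vehicle array, by 0.94 at most and 0.10 at least, as in 11.8% of all clusters. The change was -0.54 (0.688-fold, SE 0.10, adjusted p = 0.00272).

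CNN1, which encodes calponin 1 of smooth muscle, rose by 0.23 (SE 0.07, adjusted p = 0.0443, higher in 5 of 6 pairs). Its signals with R1881 were between 4.61 and 6.49, against 4.32 to 6.24 with vehicle, so the ranges over sets overlapped and the call rests on the pairs. The call was lost, with adjusted p between 0.0512 and 0.137, when any of 6 of the 9 pairs of arrays was left out, and with no filter on dim clusters (adjusted p = 0.0596). In all, 2 of 9 genes were higher and 1 lower, where 9.11% and 9.49% of all clusters were. The median over the 9 was 0.05, next to -0.02 over all clusters tested. The other 6 genes had differences between -0.16 for CALD1 (adjusted p = 0.295) and 0.20 for both TAGLN (adjusted p = 0.337) and ACTA2 (adjusted p = 0.645). For ACTA2 that mean holds the siPSF pair, at 1.84, beside 5 pairs between -0.58 and 0.37, and its SE of 0.25 takes in that spread.

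The siControl pairs alone gave a change of -0.66 for MYH10 that still passed (adjusted p = 0.0415). TPM1 then stood at 0.44 (adjusted p = 0.111) and CNN1 at 0.25 (adjusted p = 0.271), on 3 pairs. In sets 1 and 3 the cells received 10 nM R1881 and in set 2 1 nM. TPM1 was higher by 0.26 and 0.35 at 1 nM and by 0.36 to 0.94 at 10 nM, and dose and set cannot be told apart.

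**Figure D3:**
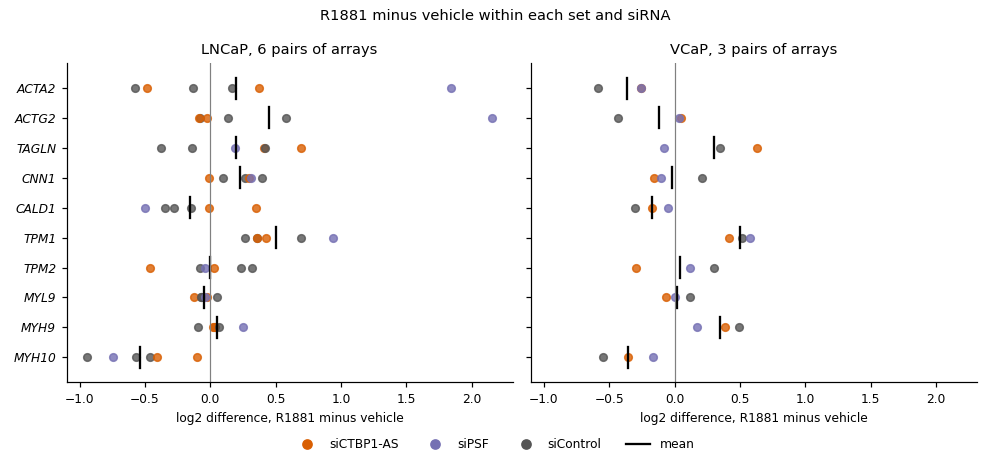
R1881 minus vehicle in log2 units (horizontal axis) for the 10 genes in the 6 pairs of LNCaP arrays (left) and the 3 pairs of VCaP arrays (right), with 1 point per pair coloured by siRNA and a bar at the mean. All points of TPM1 lie right of 0 and all points of MYH10 left of 0, and the siPSF pair of LNCaP stands apart for ACTA2 (1.84) and ACTG2 (2.16).

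In VCaP TPM1 rose again and MYH9 rose. TPM1 had 10.73, 10.43 and 10.68 with R1881 under siPSF, siCTBP1-AS and siControl, against 10.15, 10.01 and 10.17 with vehicle. The groups did not overlap, and the change was 0.50 (1.42-fold, SE 0.12, adjusted p = 0.00897, higher in 3 of 3 pairs). MYH9, which encodes nonmuscle myosin heavy chain IIA, had 9.77, 10.06 and 10.31 with R1881, against 9.60, 9.67 and 9.82 with vehicle. Here the R1881 array under siPSF lay below the vehicle array under siControl, and the change within pairs was 0.35 (1.28-fold, SE 0.09, adjusted p = 0.0113, higher in 3 of 3 pairs). MYH10 had 10.56, 9.89 and 10.10 with R1881, against 10.73, 10.24 and 10.65 with vehicle, lower in 3 of 3 pairs but not past the test (difference -0.36, SE 0.14, adjusted p = 0.0705).

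So 2 of 9 genes were called higher in VCaP and 0 lower, where 13.3% of all clusters were called higher and 15.3% lower. With 3 pairs, 29.3% of all clusters were higher in every pair and 29% lower. Leaving out 1 of the 3 pairs ended a call. TPM1 had an adjusted p of 0.0560 without the siControl pair and 0.0540 without the siPSF pair, and MYH9 had 0.103 without the siControl pair and 0.0594 without the siCTBP1-AS pair. MYH10 passed when the siCTBP1-AS pair of LNCaP set 1 or the siControl pair of LNCaP set 2 was left out, with adjusted p = 0.0411 and 0.0397. ACTA2 was lower with R1881 in 3 of 3 pairs (difference -0.37, SE 0.35, adjusted p = 0.480), at 5.57, 6.06 and 5.68 with R1881 against 5.82, 6.32 and 6.27 with vehicle. That SE takes in the spread over the LNCaP pairs as well, the siPSF pair among them. ACTG2 had 4.80, 4.70 and 4.62 with R1881, against 4.76, 4.66 and 5.05 with vehicle.

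Over both lines TPM1 was higher with R1881 in 9 of 9 pairs and MYH10 lower in 9 of 9. Of all clusters, 7.17% were higher in every pair and 6.84% lower in every pair. For the difference between the lines, limma called 0 of the 9 genes and 10.9% of all clusters. An unadjusted p below 0.05 was found for 1 of the 9, against 26% of all clusters, so nothing is read from that count. That gene was MYH9, whose VCaP response minus its LNCaP response was 0.30 (SE 0.11, adjusted p = 0.0997). For TPM1 this difference was -0.0025 (SE 0.15, adjusted p = 0.996), and for MYH10 0.18 (SE 0.17, adjusted p = 0.547).

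SRF itself differed less than ACTA2 with siPSF in LNCaP. Under siPSF in LNCaP set 3 it had 9.96 with R1881 and 9.85 with vehicle, against 9.75 and 9.64 under siControl. In VCaP it had 9.08 and 8.77 under siPSF, against 9.22 and 9.09 (difference -0.23, SE 0.20, adjusted p = 0.699). Under siCTBP1-AS, SRF had 9.73 and 9.79 in set 1, against 9.55 and 9.50, and 7.77 and 7.55 in set 2, against 8.34 and 8.11. Over these sets the difference was -0.17 (adjusted p = 0.542), and without set 1 it was -0.57 (adjusted p = 0.00508). With R1881 the SRF difference was 0.11 in LNCaP (adjusted p = 0.228) and 0.17 in VCaP (adjusted p = 0.142).

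Among the cofactors, MRTFB, an actin-regulated partner of SRF, had 8.25 and 8.19 under siPSF in VCaP, against 8.85 and 8.92 under siControl. This difference of -0.66 (SE 0.16) did not pass over all arrays (adjusted p = 0.0685) and passed on the VCaP arrays alone (adjusted p = 0.0248). In LNCaP siPSF gave MRTFB differences of -0.15 with R1881 and 0.10 with vehicle. With siCTBP1-AS in LNCaP MRTFB differed by -0.41 (adjusted p = 0.0681), and by -0.65 without set 1 (adjusted p = 0.00428), in the same fit that called 3240 clusters. MYOCD, which encodes myocardin, the smooth muscle partner of SRF, was below the filter on dim clusters, with signals between 3.44 and 4.80 over the 18 arrays and siPSF differences of 0.21 and 0.23 in LNCaP. MRTFA shares its cluster with another gene and is not given. ELK4, a ternary complex factor, rose with R1881 in LNCaP by 0.77 (adjusted p = 0.00160), and ELK3 fell in VCaP by 0.51 (adjusted p = 0.0215).

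Other cytoskeletal genes known as SRF targets showed no shift of the size of ACTA2 with siPSF in LNCaP. Over 26 such genes the mean differences lay between -0.13 for PDLIM5 and 0.66 for CNN2, with a median of 0.11. Over the 12 smooth muscle genes, which included the striated actins, they lay between -0.04 and 0.32 with a median of 0.20, and DES, the muscle intermediate filament desmin, was the highest. Of these 12, 0 were above 1 in either treatment in any set with either siRNA. Among markers of other cell types, the median difference was 0.05 over 10 fibroblast genes, 0.09 over 6 endothelial genes, where TEK was highest at 0.77, and 0.44 over 5 leukocyte genes, where LYZ was highest at 0.63. The part of these cell types in the ACTA2 difference was not tested. All of these are values of 1 array against 1 in each treatment.

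In the comparisons with a test, the counts of called genes are given beside the share over all clusters. With R1881 in LNCaP, 3 of 25 cytoskeletal SRF targets tested were higher and 2 lower, where 18.6% of all clusters changed in either direction. PDLIM5, a Z-disc protein of the PDZ and LIM family, rose by 0.96 (adjusted p = 0.00013), VCL, the focal adhesion protein vinculin, by 0.67 (adjusted p = 0.00117) and CCN1, a secreted matrix protein, by 0.42. MYLK, the kinase that phosphorylates myosin light chains, fell by 0.54 (adjusted p = 0.00226). In VCaP 2 rose and 2 fell, among them ACTN1, an actin crosslinker, at 0.29 and TAGLN2, a relative of TAGLN, at -0.75, where 28.6% of all clusters changed. CCN1 (0.36) and TUFT1 (-0.32) were the others. The responses of PDLIM5 and TAGLN2 differed between the lines, by -0.86 (adjusted p = 0.0132) and -0.65 (adjusted p = 0.0437), VCaP minus LNCaP. SMTN, the smooth muscle protein smoothelin, rose by 0.23 in LNCaP and 0.37 in VCaP, 1 of 5 smooth muscle genes tested in each line.

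Of 17 genes of myosin control and actin dynamics, 3 were higher and 2 lower with R1881 in LNCaP, where 18.6% of all clusters were called, and 3 higher and 1 lower in VCaP, where 28.6% were. PPP1CB, the catalytic subunit of myosin phosphatase, rose in both, by 0.59 (adjusted p = 0.00159) and 0.69 (adjusted p = 0.00349). RHOB rose by 0.38 and ROCK2, the kinase that inhibits that phosphatase, fell by 0.32 in LNCaP. In VCaP the targeting subunit of the phosphatase, PPP1R12A, rose by 0.27, and DIAPH3, an actin-nucleating formin, fell by 1.20. The DIAPH3 response differed from LNCaP by -0.97 (adjusted p = 0.00406), where again line and set cannot be told apart. LNCaP sets 1 and 3 also had another R1881 dose than VCaP. With siCTBP1-AS in LNCaP, where 6.14% of all clusters were called, 3 of the 17 were higher and 1 lower: RHOC at 0.54, CFL2, a muscle cofilin, at 0.49, the light chain MYL12A at 0.31 and DIAPH3 at -0.42, with adjusted p between 0.0340 and 0.0471. Of the cytoskeletal targets, LIMA1 (0.62, adjusted p = 0.00701), TUFT1 (0.51) and CNN2 (-0.45) passed there, 2 higher and 1 lower of 25. In VCaP limma called 0 of the 47 genes of these 3 lists with either knockdown, against 2.27% of all clusters with siPSF and 0.283% with siCTBP1-AS. An unadjusted p below 0.05 was found for 2 of the 47 with siPSF and 3 with siCTBP1-AS, against 14.7% and 11% of all clusters.

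Of 9 immediate early targets of SRF tested, 2 passed with each knockdown in VCaP, where 2.27% of all clusters were called with siPSF and 0.283% with siCTBP1-AS. They were FOS and FOSB, AP-1 subunits. With siCTBP1-AS, FOS rose by 1.57 (adjusted p = 0.00395) and FOSB by 1.01 (adjusted p = 0.0249). With siPSF they rose by 0.72 (adjusted p = 0.0455) and 0.65 (adjusted p = 0.0399), against the same siControl arrays. In LNCaP FOS differed by -0.13 and -0.02 with siPSF in set 3, and for siCTBP1-AS the difference between the lines was 1.36 (adjusted p = 0.0327). EGR1, a zinc finger factor, rose by 0.76 with siCTBP1-AS in LNCaP (adjusted p = 0.0340). With R1881, NR4A1, an orphan nuclear receptor, rose by 1.47 in LNCaP and 0.94 in VCaP, and in VCaP EGR1 (0.65), DUSP1 (0.58) and FOSB (0.50) were among 5 of 9 that rose, where 13.3% of all clusters were called higher.

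**Figure D4:**
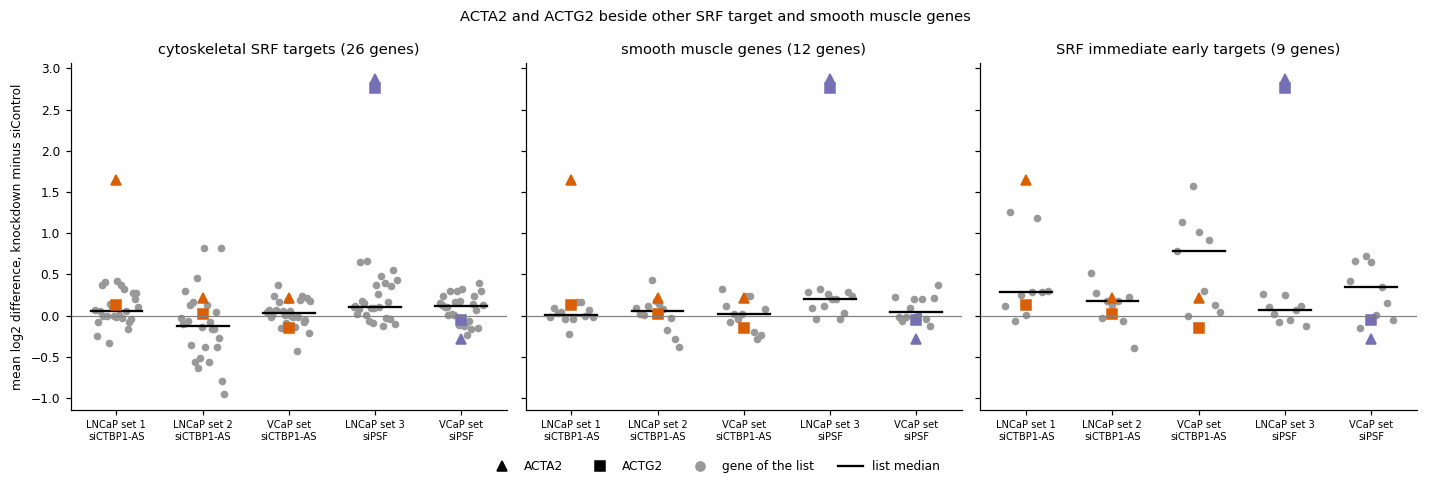
Mean difference, knockdown minus siControl, in log2 units (vertical axis) for the genes of 3 lists (grey points, bar at the list median) in each array set and siRNA (horizontal axis), with ACTA2 as triangles and ACTG2 as squares. With siPSF in LNCaP set 3, ACTA2 (2.87) and ACTG2 (2.76) lie above all genes of the lists, whose highest value there is 0.66, and with siPSF in VCaP both lie below 0.

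ACTA2 lies next to FAS, a death receptor gene, on chromosome 10, and in RefSeq their spans share 27288 bases and that of ACTA2-AS1 4901 bases with ACTA2. FAS did not follow ACTA2 under siPSF in LNCaP, with 6.86 with R1881 and 7.06 with vehicle under siPSF against 6.56 and 7.32 under siControl. With siCTBP1-AS in LNCaP FAS rose by 0.77 (SE 0.12, adjusted p = 0.00628, higher in 4 of 4 pairs), by 0.66 and 0.55 in set 1 and 1.17 and 0.69 in set 2, and on the arrays of those sets alone its adjusted p was 0.0814. In VCaP FAS differed by -0.17 with siCTBP1-AS (limma, adjusted p = 0.783), lower in 2 of 2 pairs, as were 33.9% of all clusters. With siPSF in VCaP it differed by 0.18 (adjusted p = 0.725). Its siCTBP1-AS difference between the lines was -0.94 (adjusted p = 0.106). With R1881 FAS fell by 0.50 in LNCaP (adjusted p = 0.00137) and by 1.28 in VCaP (adjusted p = 2.2e-05).

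After each set was centred on its own mean, the 5 single-gene clusters whose signals went most closely with ACTA2 over the 18 arrays were ACTG2 (Pearson r = 0.85), PLA1A, LOC151760, THBS1 and ETV3 (r = 0.82 each). These correlations are descriptions over arrays that share sets, the siPSF arrays of LNCaP among them. THBS1, which encodes the matrix protein thrombospondin 1, was higher with siPSF in LNCaP by 3.92 and 2.07 and with siCTBP1-AS by 2.09 and 3.12 in set 1 and 2.50 and 1.15 in set 2. In VCaP its differences were 0.97 and -0.11 with siPSF and 1.22 and 0.19 with siCTBP1-AS, with R1881 and vehicle in turn. PLA1A, which encodes a phosphatidylserine phospholipase, was higher by 1.60 and 0.81 with siPSF in LNCaP and, under siCTBP1-AS, by 1.24 and 1.46 in LNCaP set 1. It differed by -0.56 and 0.19 for the same siRNA in LNCaP set 2, and in VCaP by 0.35 and -0.05 with siPSF and -0.13 and -0.33 with siCTBP1-AS. Of the other 8 contractile genes, MYL9 went most with ACTA2 (r = 0.45) and CALD1 least (r = -0.31).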

How the data were processed

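RNA of LNCaP and VCaP cells was hybridised to 18 arrays. Per the submitters' processing notes, the authors used RMA and Affymetrix Expression Console 1.1.1, and deposited a log2 signal for each transcript cluster. Which arrays were normalized together by RMA is not given in the sources used. Gene symbols came from the platform annotation: 19460 clusters had 1 symbol, 1754 several and 12083 none. Arrays of one set had correlations of 0.980 to 0.992 across clusters, and no pair was identical.

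Tests used limma 3.58.1 (lmFit, eBayes) in R 4.3.3 on 15910 clusters, with Benjamini-Hochberg adjustment over all of them at 0.05. The R1881 fit held 9 pairs of arrays as blocks (7 residual degrees of freedom). The knockdown fit held 8 blocks of set and treatment (6 residual degrees of freedom), so arrays of different treatment served as replicates of a knockdown. Where arrays of 1 transfection share a deviation, p-values are too small. Replicate numbers stand only in the names of the LNCaP siControl arrays, so the names do not give the set of the other arrays. The sets follow the order of the arrays in the series. Deviations of same-numbered siControl arrays in LNCaP correlated at 0.79, 0.85 and 0.71, against -0.63 to -0.10 for different numbers. They were taken from the mean of the siControl arrays of a treatment, so positive values for equal numbers bring negative ones for different numbers. The knockdown arrays were not checked in this way. The fits were also run on simulated data whose noise was independent between the arrays of a set. Deviations shared by arrays of 1 transfection were not simulated, so that limit was not tested.

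The 10 genes and all lists were chosen with earlier results of these data known. Named were the 10 genes, SRF, its cofactors and FAS, though not each of them in every comparison. Also named were at most 4 called genes of each other list by size, and the 5 clusters most correlated with ACTA2. Alternatives were the filter, array centring, quantile normalization, 1 cluster per gene, an intensity trend, no block, fewer arrays and leaving out arrays. Promoter sequences came from RefSeq (GRCh38.p14).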

Additional observations from a re-analysis of the deposited data

Results flagged for a closer look

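The differences between cell lines that were flagged concerned siPSF and FAS. For siPSF the rule was a sign that was opposite in the lines and the same in both treatments of each line. Under siPSF every VCaP pair went down and every LNCaP pair up for ACTA2, with a VCaP minus LNCaP difference of -3.15 on the log2 scale, and likewise for MYH9 (-0.52), MYL9 (-0.28) and SRF (-0.44). The share of all clusters that meets this rule was not computed, so nothing is read from the number of genes flagged. In VCaP alone, 34% of all clusters were lower in both siPSF pairs. MYL9 met the rule with VCaP differences of -0.15 with R1881 and -0.03 with vehicle. None of these was tested, since the LNCaP values chose the genes, and each line has 1 set of siPSF arrays, so line and set cannot be told apart. Since the rule asked for opposite signs in both treatments, the split in the vehicle arrays follows from it and adds nothing. There the siPSF difference in VCaP and in LNCaP was -0.45 against 1.89 for ACTA2 and -0.22 against 0.05 for MYH9. For MYL9 it was -0.03 against 0.17 and for SRF -0.32 against 0.21. The response of FAS to R1881 differed between the lines by -0.77 (SE 0.14, adjusted p = 0.00580), with a lower signal in 9 of 9 pairs. At 1 nM R1881 the FAS differences were -1.26, -1.19 and -1.38 in VCaP, against -0.78 and -0.30 in LNCaP set 2, and at 10 nM they lay between -0.76 and -0.21 in LNCaP. VCaP was measured in 1 set, so line and set cannot be told apart here either. No group held 4 or more arrays, so single arrays were not screened for outlying values.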

How the results depend on the processing

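No called gene among the 9 tested changed sign. The count for R1881 in LNCaP, 3, was 2 with no filter on dim clusters and with an intensity trend, and that for R1881 in VCaP, 2, was 3 with quantile normalization. With no replicate block the count was 0 for R1881 in LNCaP (189 clusters called, against 2959 with it), R1881 in VCaP (97, against 4558) and siCTBP1-AS in LNCaP (7, against 977), since level differences between sets then enter the spread; the VCaP minus LNCaP difference in R1881 response had 8 (against 1733), and the other comparisons 0 clusters (against 45, 55 and 361). On the siControl pairs only, with a replicate block, R1881 in LNCaP called 1 gene (783 clusters). On sets 1 and 2 only, siCTBP1-AS in LNCaP called 0 (33 clusters), and on fewer arrays there are fewer degrees of freedom. On the VCaP arrays only, siCTBP1-AS called 172 clusters and siPSF 607, and on siCTBP1-AS and its controls the line difference called 1, with 0 of the 9 genes in each. Quantile normalization gave 24 clusters for siCTBP1-AS in VCaP and called MYH10 with R1881 in VCaP (adjusted p = 0.0493). CNN1 with R1881 in LNCaP was lost with an intensity trend (adjusted p = 0.0604).

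Leaving out arrays or pairs in turn gave 2 to 3 called genes for R1881 in LNCaP (2055 to 2912 clusters), 0 to 3 for R1881 in VCaP (2277 to 4819), 0 to 2 for siCTBP1-AS in LNCaP (451 to 3240) and 0 in the other comparisons, where clusters ran from 618 to 1742 for the line difference in R1881 response, 1 to 343 for siCTBP1-AS in VCaP, 0 to 1597 for its line difference and 25 to 1072 for siPSF in VCaP. CALD1 with R1881 in LNCaP passed only without the siCTBP1-AS pair of set 2 (-0.26, adjusted p = 0.0475). Over single genes 16 results were gained, 27 lost and 1534 stayed the same. The 1534 include described siPSF values in LNCaP, which have no test and were judged by the size of their shift. The share of calls that were higher was 57.8% for siCTBP1-AS in VCaP (72.7% centred, 75% quantile), 50.9% for its line difference (62.3% quantile) and 32.1% for siPSF in VCaP (45% centred). Both alternatives for the described siPSF values in LNCaP were chosen after seeing the data: MYL9, at 0.19, was 0.16 centred and 0.15 with quantile normalization, and TPM2, at -0.01, was -0.06 with quantile normalization.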
